A study of Mus musculus with 6 samples.

Results

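The Kruppel-like factors examined here are 9 genes, Klf2, Klf3, Klf4, Klf5, Klf6, Klf7, Klf9, Klf10 and Klf13, out of 15357 genes that could be named in the deposited table of probe sets. They were taken from that table by gene identifier, and where this gave no gene, by transcript accession or gene symbol. A probe set is a group of short oligonucleotides that measures 1 transcript region, and the 9 genes have 31 of the 33142 probe sets in that table. The value of a gene is that of its brightest probe set, the one with the highest mean over all arrays. Klf2, Klf4 and Klf5, the members associated with mouse embryonic stem cells (mESCs), were set against the other 6 members.

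Undifferentiated mESCs of the C57BL/6 background were profiled at passage 8 and day 0 of differentiation, on 3 microarrays of wild-type (WT) cells and 3 of Alkbh1-/- cells, to find genes whose expression differs when the dioxygenase ALKBH1 is missing. Per the study's methods, the mESCs came from littermate embryos of heterozygous parents, and all cultures received leukemia inhibitory factor (LIF) and grew on irradiated mouse embryonic fibroblasts. The arrays of a genotype share a name in the labels, and no source used here says whether they came from separate lines or cultures. Genotype means, but no values of single arrays, were analysed here, so no SD or test could be given for any difference below.

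Kruppel-like factors are transcription factors with zinc fingers at the C-terminus that bind GC-rich and CACCC motifs. In mESCs, Klf2, Klf4 and Klf5 act in the network that keeps the naive pluripotent state. Klf4 lies downstream of LIF and STAT3 and is one of the classical reprogramming factors. Several other members are better known from differentiated tissues: KLF3 acts mainly as a repressor, KLF6 is induced by growth factors and injury, KLF7 is found in developing neurons, KLF9 responds to glucocorticoid and thyroid hormones, KLF10 is induced by TGF-beta, and KLF13 acts in blood and heart cells.

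The promoters of the 4 members with genotype means at their brightest probe set are shown because these members carry the comparison and because the family's own motifs lie in such sequence. Each is the 250 bases before the gene's start, from RefSeq on build GRCm38.p6, written 5′ to 3′ on the strand of the gene. Capitals mark the GC box GGGCGG and the motif CACCC, each read on both strands, and they run together where 2 copies touch.
Klf2 (chr8:72318812-72319061, plus strand): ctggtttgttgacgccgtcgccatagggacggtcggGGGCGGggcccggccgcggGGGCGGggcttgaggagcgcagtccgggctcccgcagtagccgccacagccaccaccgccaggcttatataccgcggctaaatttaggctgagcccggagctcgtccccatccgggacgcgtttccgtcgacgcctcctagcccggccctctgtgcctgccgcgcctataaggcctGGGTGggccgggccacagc
Klf4 (chr4:55532476-55532725, minus strand): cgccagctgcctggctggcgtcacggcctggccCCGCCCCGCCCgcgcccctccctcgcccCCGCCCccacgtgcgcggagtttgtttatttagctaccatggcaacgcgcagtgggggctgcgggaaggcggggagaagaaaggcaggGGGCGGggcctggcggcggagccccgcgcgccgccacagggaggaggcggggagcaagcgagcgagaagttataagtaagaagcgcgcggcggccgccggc
Klf6 (chr13:5861239-5861488, plus strand): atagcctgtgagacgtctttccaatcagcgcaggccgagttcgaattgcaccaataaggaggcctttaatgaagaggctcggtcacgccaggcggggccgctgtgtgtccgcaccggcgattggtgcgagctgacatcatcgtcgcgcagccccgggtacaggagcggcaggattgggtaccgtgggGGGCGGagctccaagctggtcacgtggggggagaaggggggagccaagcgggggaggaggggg
Klf7 (chr1:64121390-64121639, minus strand): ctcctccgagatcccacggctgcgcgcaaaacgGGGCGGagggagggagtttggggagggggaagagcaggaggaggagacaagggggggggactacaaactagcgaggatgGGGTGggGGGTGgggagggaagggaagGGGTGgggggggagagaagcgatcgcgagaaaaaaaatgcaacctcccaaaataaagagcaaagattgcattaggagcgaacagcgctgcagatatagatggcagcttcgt
Entries were found for 7 of the 9 members, and none was held for Klf5 or Klf10. GGGCGG had 4 matches before Klf4, 2 before Klf2 and 1 each before Klf6 and Klf7. CACCC had 3 matches before Klf7, 1 before Klf2 and none in the windows of Klf4 and Klf6. Of the members not printed, Klf3 had 6 matches to GGGCGG and 5 to CACCC, Klf13 had 3 and 1, and Klf9 had 0 and 1. Among 32851 promoter windows of this length, 32.7% held GGGCGG and 52.0% held CACCC, so neither motif is rare. The STAT-type motif TTCCNGGAA was in 0.913% of all windows and in 0 of the 7 member windows. These matches describe the letters of a window, and binding was not measured.

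The means of the genotypes were listed only for probe sets that had passed a filter and a nominal threshold of 0.05 in the authors' own comparison. A member outside this list is one without listed means, which does not show that its genotypes were alike. Of all 33142 probe sets, 12.8% had genotype means, 6.57% with a higher mean in Alkbh1-/- cells and 6.19% with a lower one. Of the 15357 genes, 14.7% had them at the brightest probe set, 6.96% higher and 7.76% lower. By the same measure 4 of the 9 members had genotype means, 2 higher in Alkbh1-/- cells (Klf2 and Klf4) and 2 lower (Klf6 and Klf7). Counting any probe set added Klf9, with higher Alkbh1-/- means. At the level of probe sets, 13 of the 31 had genotype means, 5 higher and 8 lower. These counts share a source, since 12 of the 13 belong to 4 genes.

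**Figure D1:**
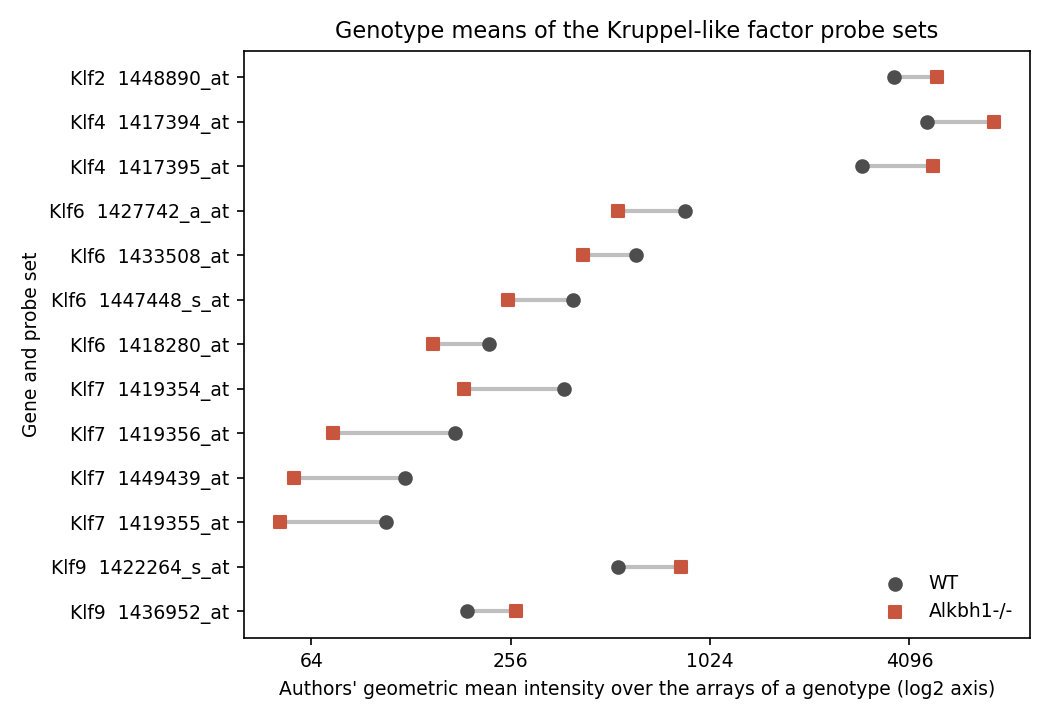
Genotype means of the 13 member probe sets that have them, with the authors' geometric mean intensity on a log2 axis, WT as circles and Alkbh1-/- as squares, and a grey line joining the pair. The squares lie to the right of the circles for Klf2, Klf4 and Klf9 and to the left for Klf6 and Klf7, and no error is drawn because only means were analysed.

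The targeted gene was looked at first as a check of the labels. Its brighter probe set (1434660_at) had an authors' mean intensity of 761 in WT and 25.7 in Alkbh1-/- cells, a log2 ratio of -4.89. The dimmer probe set (1438681_at) had means of 120.0 and 34.6, a log2 ratio of -1.79. Alkbh1 was thus lower in the arrays labelled Alkbh1-/- at both probe sets.

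Among the members associated with mESCs, Klf4 and Klf2 had higher means in Alkbh1-/- cells, and Klf5 had no listed genotype means. Klf4, a target of LIF signalling, is on chromosome 4. At its brightest probe set (1417394_at) the authors' mean intensity was 4628 in WT and 7380 in Alkbh1-/- cells, 1.59-fold higher, or 0.67 as a log2 ratio of the means. Its other probe set (1417395_at) had means of 2954 and 4832, a log2 ratio of 0.71. The 2 ratios of Klf4 lay 0.04 apart on the log2 scale.

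Klf2, which in mESCs supports self-renewal alongside Klf4, is on chromosome 8 and has 1 probe set (1448890_at). Its authors' mean intensity was 3685 in WT and 4949 in Alkbh1-/- cells, 1.34-fold higher, with a log2 ratio of 0.43. This ratio lies near the low end of the list, whose smallest ratio in size was 0.37: of the 2178 probe sets with a higher Alkbh1-/- mean, 96.7% had a larger ratio than Klf2, and 49.5% a larger one than Klf4. The median log2 ratio of those 2178 was 0.67, and that of the 5 member probe sets on this side was 0.64.

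Klf5, the third of these factors and one that also acts in the early embryo's trophectoderm, is on chromosome 14. Its 3 probe sets had authors' means over all arrays of 12.68, 12.13 and 8.33 on the log2 scale. None of the 3 had listed genotype means. The brightest one therefore gives a level of Klf5 transcript over both genotypes together and nothing on the difference between them.

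Among the other members, Klf6 and Klf7 had lower means in Alkbh1-/- cells at all of their probe sets with genotype means. Klf7, a neuronal member of the family on chromosome 1, had such means for all 4 of its probe sets. At the brightest (1419354_at) the authors' mean intensity was 371 in WT and 185 in Alkbh1-/- cells, 2.01-fold lower, a log2 ratio of -1.01. The means at 1419356_at were 174 in WT and 74.6 in Alkbh1-/- cells, a log2 ratio of -1.22. The dimmer pair of probe sets had log2 ratios of -1.11 (1449439_at, 123 in WT and 56.6 in Alkbh1-/- cells) and -1.06 (1419355_at, 107 and 51.4). The 4 ratios of Klf7 spanned 0.21 on the log2 scale. Of the 2053 probe sets with a lower Alkbh1-/- mean, 16.0% had a ratio of larger size than the brightest probe set of Klf7.

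Klf6, an early response gene on chromosome 13, had genotype means for 4 of its 5 probe sets. At the brightest (1427742_a_at) the authors' mean intensity was 863 in WT and 541 in Alkbh1-/- cells, 1.60-fold lower, a log2 ratio of -0.67. The means were 614 and 425 at 1433508_at, with a log2 ratio of -0.53. At 1447448_s_at they were 396 and 251, a log2 ratio of -0.66, and at 1418280_at they were 220 and 149, a log2 ratio of -0.56. The s in the name of 1447448_s_at marks probes that may match other transcript families as well. The 4 ratios spanned 0.14, and the dimmest Klf6 probe set (1459718_x_at, authors' mean 4.02 on the log2 scale) had no listed genotype means. Of the 2053 probe sets on the lower side, 47.9% had a ratio of larger size than the brightest of Klf6. The median log2 ratio of all 2053 was -0.66, and that of the 8 member probe sets among them was -0.84.

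Klf9, the hormone-responsive member on chromosome 19, had genotype means at 2 of its 8 probe sets. These 8 probe sets had authors' means over all arrays between 4.26 and 12.71 on the log2 scale, and the 4 brightest, at 12.71, 12.32, 12.17 and 9.65, had no genotype means. The fifth brightest (1422264_s_at) had means of 539 in WT and 838 in Alkbh1-/- cells, a log2 ratio of 0.64. The next (1436952_at) had means of 189 and 265, a log2 ratio of 0.49. Both were thus higher in Alkbh1-/- cells, on the side of Klf2 and Klf4 and not on that of Klf6 and Klf7. By the rule of the brightest probe set Klf9 has no ratio, so its direction rests on a minority of its probe sets, and the s in the name of 1422264_s_at marks probes that may match more than 1 transcript family.

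**Figure D2:**
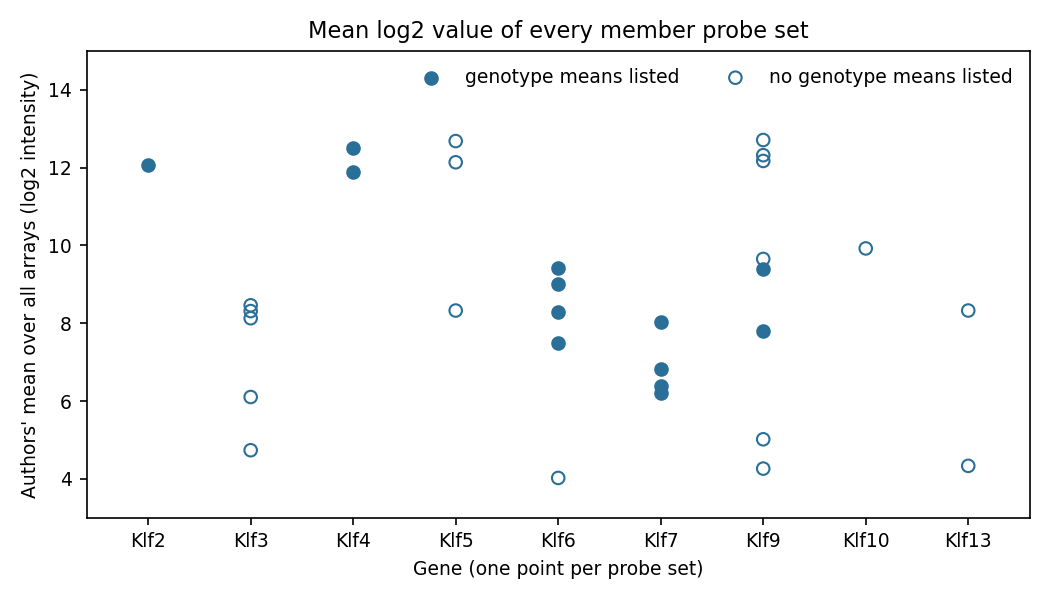
Authors' mean over all arrays, in log2 intensity, of each of the 31 member probe sets, 1 point per probe set, filled where genotype means were listed and open where they were not. Klf9 holds open points at the top and filled points in the middle, whereas all points of Klf7 are filled and all of Klf3, Klf5, Klf10 and Klf13 are open, and levels of different probe sets are not comparable because probes differ in brightness.

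Klf3, Klf10 and Klf13 had no genotype means at any probe set. Klf3, the repressor on chromosome 5, has 5 probe sets with authors' means over all arrays from 4.74 to 8.46 on the log2 scale. Klf10, on chromosome 15 and listed under its older name Tieg, has 1 probe set with a mean of 9.92. Klf13, on chromosome 7, has 2 probe sets with means of 8.33 and 4.34. With Klf5, these make 4 of the 9 members for which the means used here give a level but no difference. The authors' own columns of differences were not used.

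The contrast between the groups of members was taken over those with genotype means. The ESC-associated members had a median log2 ratio of 0.55 over Klf2 and Klf4, and the other members one of -0.84 over Klf6 and Klf7, a difference of 1.39. All 3 probe sets of the first group that had genotype means were higher in Alkbh1-/- cells. Of the 10 in the second group, 8 were lower and 2, both of Klf9, were higher. Each group had only 2 of its members in this contrast, out of 3 and 6, and members are not replicates of a condition. No listed ratio was smaller in size than 0.37, and members without listed means do not enter. The contrast may therefore overstate the difference between the full groups. No test was possible, and the contrast describes these genes. Klf9 is left out of it by the rule of the brightest probe set, and with all probe sets with genotype means averaged per gene it enters at 0.56 and the contrast becomes 1.16.

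**Figure D3:**
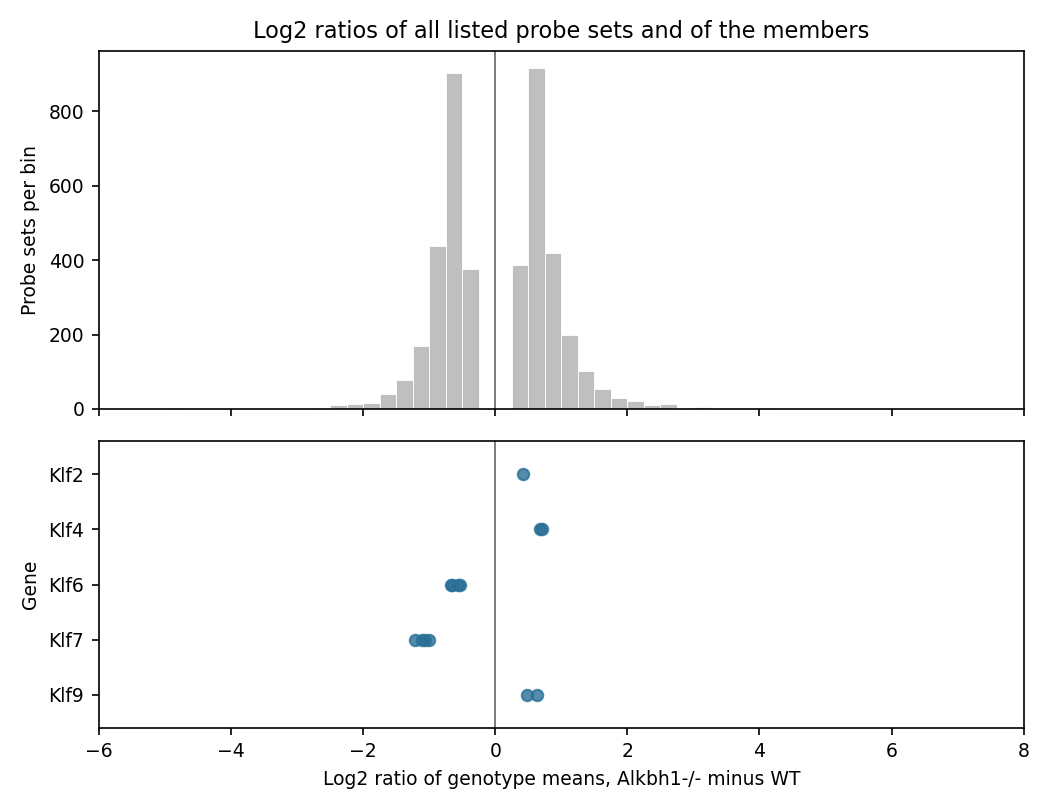
Top, number of probe sets per bin of the log2 ratio of genotype means, Alkbh1-/- minus WT, for the 4231 probe sets with such means. Bottom, the ratios of the 13 member probe sets on the same axis, 1 point each, where Klf2, Klf4 and Klf9 lie above 0 and Klf6 and Klf7 below, and no listed probe set has a ratio smaller in size than 0.37.

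Of the 9 members, 4 had genotype means at more than 1 probe set, and in 0 of these 4 did the sign differ between probe sets. Over all genes with several such probe sets, 705 of 708 (99.6%) had a single sign, so this is the common behaviour of the table. The members lie on 9 different chromosomes, all autosomes.

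The upstream LIF pathway had no listed genotype means. Lifr and Il6st, which encode the receptor chains for LIF, Stat3, the factor they activate, and Socs3, its feedback inhibitor, had authors' means over all arrays from 9.24 to 10.78 on the log2 scale at their brightest probe sets. For 0 of these 4 genes were genotype means listed at any probe set. With 14.7% of all genes listed at the brightest probe set, a count of 0 of 4 says little. Whether these genes differed between genotypes is not given by the means used here, and the authors' own columns of differences were not used.

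Genes that work beside the Klf factors in naive mESCs had higher Alkbh1-/- means where means were listed. Of 9 such partners 6 had genotype means at the brightest probe set, and all 6 were higher in Alkbh1-/- cells, with a median log2 ratio of 0.85. Over all genes, 14.7% had such means and 6.96% were higher. The partners were chosen with earlier results of these data known, so their count is not an independent result. Tbx3, a T-box factor downstream of LIF, had means of 399 in WT and 1981 in Alkbh1-/- cells, a log2 ratio of 2.31. Prdm14, which guards naive pluripotency, had means of 152 and 592, a log2 ratio of 1.96. Nanog, a core pluripotency factor, had means of 3852 and 8267, a log2 ratio of 1.10. These 3 ratios were larger than that of Klf4. Tfcp2l1 (log2 ratio 0.60), Esrrb (0.55) and Zfp42 (0.41), further genes of the naive state, had ratios below that of Klf4. The core factors Pou5f1 and Sox2, and Nr5a2, an orphan receptor, had no listed genotype means.

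The markers of the labelled cell type were looked up as well. All 9 mESC markers had a probe set, and the brightest of each had an authors' mean over all arrays between 10.05 and 14.49 on the log2 scale. Since probes differ in brightness, these levels describe the markers and give no share of mESCs against other cells. At the brightest probe set, genotype means were listed for 4 of the markers, against 14.7% of all genes. Of these markers, 3 were higher in Alkbh1-/- cells (Nanog, Esrrb and Zfp42) and 1 was lower (Utf1, a chromatin factor of pluripotent cells, log2 ratio -0.49). The 3 higher ones were already counted among the partners, by the same probe sets. Fgf4 had genotype means at all but its brightest probe set, and they were higher in Alkbh1-/- cells. Its brightest probe set, with a mean over all arrays of 10.859, lay barely above the next, at 10.857.

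Markers of fibroblasts, which served as feeder cells, lay on the side of Klf6 and Klf7 where genotype means were listed. All 10 were measured, with authors' means over all arrays from 6.21 to 11.82 on the log2 scale at the brightest probe set. Genotype means were listed at the brightest probe set for 4 of the 10, and all 4 were lower in Alkbh1-/- cells. Their log2 ratios were -1.06 for Col1a1, -0.88 for Col3a1, -0.89 for Fbn1 and -0.52 for Thy1. Over all genes, 14.7% had such means and 7.76% were lower. These markers too were chosen with earlier results of these data known. The means of the 4 listed markers summed to 2950 in WT and 1586 in Alkbh1-/- cells, of which Col3a1 gave 2002 and 1087. This sum leaves out the markers with the highest levels over all arrays, Col1a2 (11.82) and Acta2 (11.18). It adds probe sets of unlike brightness and is no measure of the whole fibroblast signal. For Postn, Lum, Dcn, Acta2, Loxl1 and the brightest probe set of Col1a2, no genotype means were listed, and a dimmer probe set of Col1a2 had a log2 ratio of -1.06. The part of these cells in the ratios of Klf6 and Klf7 was not tested. In bulk RNA, fewer cells of a type and less RNA per cell cannot be told apart.

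**Figure D4:**
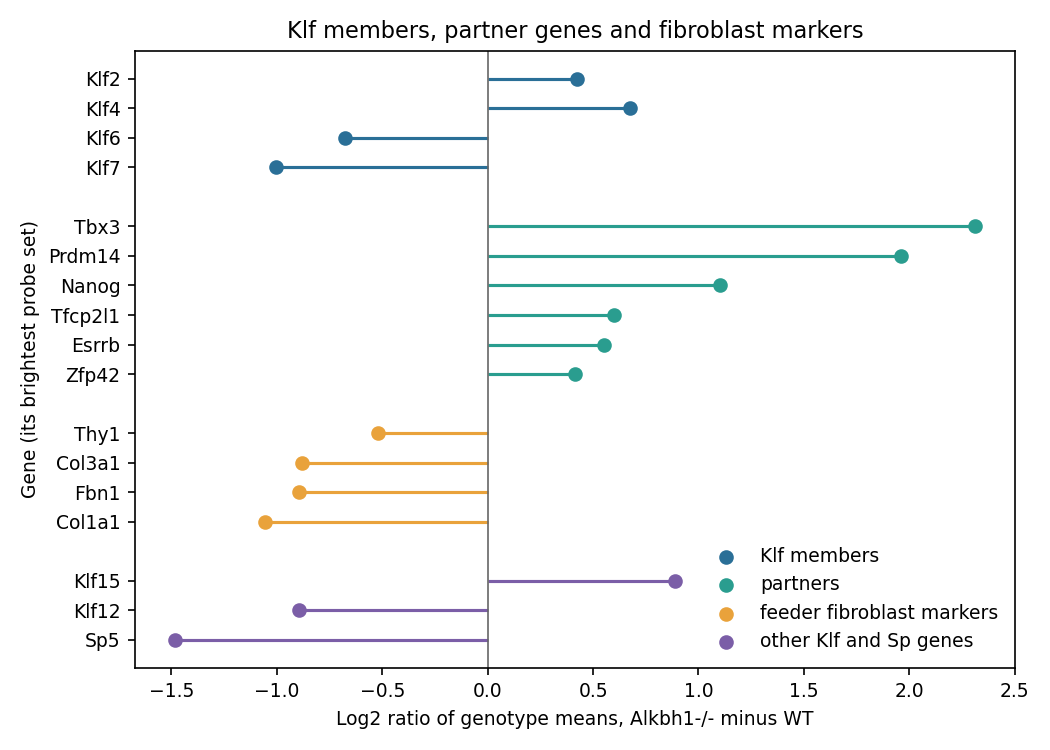
Log2 ratio of genotype means, Alkbh1-/- minus WT, at the brightest probe set of each gene that has such means, for the Klf members, the partner genes, the fibroblast markers and other Klf and Sp genes, each gene as a point with a line to 0. All 6 partners lie above 0 with Klf2 and Klf4, and all 4 fibroblast markers lie below 0 with Klf6 and Klf7.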

How the data were processed

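RNA of 3 WT and 3 Alkbh1-/- mESC samples was hybridized by the authors to Affymetrix Mouse Genome arrays, and signals were normalized with RMA, named in the submitters' processing notes. The authors deposited a table of 33142 probe sets with the log2 mean over all 6 arrays. The header of their class comparison counts 45101 probe sets in its variance model, so the shares given here are over the smaller set. They also deposited a class comparison with the geometric mean intensity of each genotype, which lists 4326 entries below a nominal threshold of 0.05, out of 7320 left by filtering (per the file header). Its WT class is misnamed, as the accompanying description says. Further columns hold the authors' differences, folds, statistics and p-values, and were not used.

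Identifiers of the class comparison do not stand beside their own values, so the tables were joined by value: the mean of both log2 genotype means had to lie within 1e-06 of the log2 mean over all arrays, uniquely on both sides. This joined 4231 probe sets, of which 8 carried the same identifier in both tables. All 4231 joined identifiers occur somewhere in the class comparison, and the member identifiers that occur there are the 13 that were joined. Probe sets of 1 gene had a single sign for 99.6% of genes by this join and for 40.9% by the listed identifiers. On simulated data with 4326 entries of known origin, the join found 4283, with 0 wrong. Every simulated entry had its partner among the probe sets, so false joins of entries without a partner were not simulated. Log2 ratios were computed as Alkbh1-/- minus WT.

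Probe sets were named through RefSeq genes of GRCm38.p6 by gene identifier, accession, symbol or synonym (85.1% named). The planned limma fit needs values of single arrays and was not run, so nothing was tested, and the number of arrays limits the precision. The text names the 9 members, Alkbh1, other Klf and Sp genes, LIF pathway and partner genes, and markers of mESCs and fibroblasts. Members and lists were chosen with earlier results of these data known. Alternatives covered the choice of probe set, tolerance, centring, the summary of the contrast and each member left out. Python 3.11.15 with pandas 2.3.3, NumPy 2.4.6 and matplotlib 3.10.9 was used.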

Additional observations from a re-analysis of the deposited data

How the results depend on the processing

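Of 28 alternative values, 0 reversed in direction, 10 stayed as reported to 2 decimals (or, for a count, within 1.5 times) and 18 moved. Several of those that stayed could not have moved. Klf2 has 1 probe set, and no member's brightest probe set with genotype means had an x or s in its name. Their levels all lay above the median of all probe sets, and with 2 members in each group the mean equals the median. Many of the 28 also could not have reversed. A count has no sign, and averages over probe sets that share a sign keep it. Leaving out a member still set higher ratios against lower ones, and the centring could only lower Klf6 and Klf7 further. The count of 0 reversals therefore says little. The contrast could not be formed at a tolerance of 0.0001, which left no ratio for Klf6 or Klf7, and it is not among the 28. With all probe sets with genotype means averaged per gene, the log2 ratio was 0.69 for Klf4, -0.61 for Klf6 and -1.10 for Klf7, and the contrast was 1.16. With the median log2 ratio of all entries, 0.42, subtracted, the ratios were 0.0086 for Klf2, 0.26 for Klf4, -1.09 for Klf6 and -1.42 for Klf7. That median is taken over a list that holds no ratios near 0 and is no measure of a shift between the arrays. The contrast was 1.51 without Klf2, 1.27 without Klf4, 1.55 without Klf6 and 1.22 without Klf7. A tolerance of 0.0001 left 2 members with genotype means in place of 4, because the match had to be unique and the entries of Klf6 and Klf7 then lay within the tolerance of 3 and 2 probe sets. An alternative added after the data were seen took the class comparison by its own identifiers: the ratios were then 0.64 for Klf2, 0.71 for Klf4, -0.93 for Klf6 and -2.42 for Klf7, and the contrast 2.35. Under it, probe sets of Klf7 differed in sign, from -2.42 to 0.70, and Alkbh1 had a log2 ratio of -1.22.

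No paired analysis was possible because the tables used here carry no values of single arrays. For the same reason the limma fit, the replicate block and leaving out each array were not run. The list of genotype means holds only probe sets that passed the authors' threshold and no joined ratio smaller in size than 0.37, so members with smaller differences could not be seen here. The 65 entries that matched no probe set within the tolerance, and the 4326 entries' own names, were not used.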

Other observations

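Other genes of the wider family, chosen by name but with earlier results of these data known, were looked up in the same way. Of 12 Klf and Sp genes, 11 had a named probe set, and Klf8 did not. Genotype means were listed at the brightest probe set for 3 of the 11, 1 higher in Alkbh1-/- cells and 2 lower. The share over all genes was 14.7%. Sp5, a target of WNT signalling, had authors' mean intensities of 246 in WT and 87.9 in Alkbh1-/- cells, a log2 ratio of -1.48, larger in size than those of the 13 member probe sets with genotype means. Klf12, a repressor, had means of 90.4 and 48.7 at its brightest probe set, a log2 ratio of -0.89, and a log2 ratio of -1.24 at the next, while the dimmest of its 3 had none listed. Klf15, known from muscle and liver metabolism, had means of 102 in WT and 189 in Alkbh1-/- cells, a log2 ratio of 0.89. The middle one of the 3 Klf17 probe sets had means of 19.4 and 14.6, a log2 ratio of -0.41, while its brightest had none listed. For Klf1, Klf11, Klf14, Klf16, Sp1, Sp3 and Sp4 no genotype means were listed at the brightest probe set.

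Fgf4, which drives mESCs towards commitment, has 4 probe sets. Its brightest had no genotype means, and the next 3 had log2 ratios of 0.46, 0.49 and 0.58. The first of these 3 was nearly as bright as the brightest, with means over all arrays of 10.857 and 10.859.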
